A study of Mus musculus with 16 samples.

Results

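Growing mouse oocytes lacking both Hdac1 and Hdac2 were compared with oocytes lacking Hdac2 alone, a comparison that reads what Hdac1 does in an oocyte once Hdac2 has been deleted. It rests on 8 of the 16 arrays of the study, 4 from HDAC1/2 conditional knocked-out mice and 4 from HDAC2 conditional knocked-out mice, chosen by their titles. The other 8 arrays, 4 from HDAC1 conditional knocked-out mice and 4 from wild type mice, entered the same fit and served to read the same Hdac1 deletion where Hdac2 was still present. Per the labels and the study's methods, the mice were C57BL/6 and 12 days old, the deletion was made by a Zp3-Cre transgene, whose promoter is active in growing oocytes, and each sample pooled 80 oocytes, with the 4 samples of a genotype given as independent biological replicates. By their labels both groups of the main comparison carry the Hdac2 deletion, and they differ by the deletion of Hdac1. The part of the transgene in comparisons with wild type, the interaction included, was not tested. RNA was amplified and hybridised to Affymetrix Mouse 1.1 ST arrays, on which the signals of several short probes make up 1 probe set, and 21218 probe sets with exactly 1 gene symbol, covering 18820 genes, were tested. Values are the deposited ones, taken as log2, so a difference of 1 stands for a 2-fold change in signal, and a probe set counted as changed at a limma adjusted p under 0.05.

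HDAC1 and HDAC2 are closely related enzymes that remove acetyl groups from lysines of histones and other proteins. They form the catalytic core of the NuRD, Sin3, CoREST and MiDAC co-repressor complexes, which are recruited to genes by DNA-binding proteins, and in many cells either enzyme can fill the place of the other. Growing oocytes transcribe and store the mRNAs that later serve meiotic maturation and the early embryo, before transcription stops in the full-grown oocyte.

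The oocyte markers checked the tissue label: all 16 measured, among them Gdf9 and Zp3, were above the median probe set in each genotype, and their mean per array lay between 11.32 and 11.33 in the double knockout, against 11.35 to 11.40 in the Hdac2 knockout. Of these markers 2 were called lower, among them the germ-cell helicase Ddx4, by 0.34. Most markers of other ovarian cells were below the median probe set, 5.27. The mean of 14 granulosa markers was 5.02 to 5.17 per double-knockout array and 4.96 to 5.10 per Hdac2-knockout array. The 14 theca and stroma markers averaged 4.09 to 4.18 in the double knockout and 4.03 to 4.12 in the Hdac2 knockout, and the 13 blood, immune and endothelial markers averaged 4.34 to 4.43 in the double knockout and 4.42 to 4.50 in the Hdac2 knockout. Of the 14 granulosa markers 2 were called higher and 1 lower (16.8% and 16.9% over all probe sets), of the theca and stroma markers 1 higher and 0 lower, and of the blood, immune and endothelial markers 1 higher and 2 lower. Above the median probe set were 4 granulosa markers in the double knockout and 3 in the Hdac2 knockout, 1 theca and stroma marker in each, and 3 blood, immune and endothelial markers in each. The nuclear receptor gene Nr5a2, on the granulosa list, averaged 8.74 in the double knockout and 9.6 in the Hdac2 knockout (-0.86), and Gja1, a gap junction gene of the same list, rose by 0.89. Pecam1, an endothelial adhesion gene, averaged 7.04 in the double knockout and 8.35 in the Hdac2 knockout (-1.30). Their part in the results was not tested. Arrays correlated across the tested probe sets at 0.995 to 0.997 within the double knockout, at 0.996 to 0.997 within the Hdac2 knockout and at 0.980 to 0.984 between the groups. An array compares the make-up of the RNA it receives, so fewer cells of a type and less RNA per cell cannot be told apart, and neither can a change in the total RNA of an oocyte be seen.

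Hdac1 (probe set 10516605, chromosome 4) stood at 7.72, 7.54, 7.61 and 7.75 on the double-knockout arrays and at 9.69, 9.77, 9.55 and 9.56 on the Hdac2-knockout arrays. All 4 double-knockout arrays were far below all 4 Hdac2-knockout arrays, in the direction of the labels. The difference was -1.99 (SE 0.08, limma adjusted p = 2.31e-11), leaving 25.2% of the Hdac2-knockout signal, and exact permutation of the 8 arrays, with 70 arrangements, gave p = 0.0286, the smallest p it can give. The other Hdac1 probe set fell by 1.98. In the Hdac1 knockout, where Hdac2 was present, Hdac1 stood at 6.61 ± 0.19, against 9.28 ± 0.05 in wild type (SD, n = 4 each), so the deletion lowered the signal by 2.66 there. The reduction was smaller without Hdac2 than with it by 0.68 (SE 0.12, limma adjusted p of the interaction = 0.000539).

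Hdac2 (probe set 10362520, chromosome 10) stood at 10.85, 10.81, 10.89 and 10.95 in the double knockout and at 10.95, 11.01, 11.01 and 10.99 in the Hdac2 knockout. The ranges touched at 10.95. The difference of -0.12 (SE 0.05) missed the threshold (limma adjusted p = 0.0901, and 0.0571 by exact permutation), but it passed after centring each array on its median (-0.18, limma adjusted p = 0.0139). Against wild type, at 11.09 ± 0.07 (SD, n = 4), the double knockout was lower by 0.21 (limma adjusted p = 0.00274) and the Hdac2 knockout by 0.10 (limma adjusted p = 0.33). No source used here says which exons the probes cover, so the arrays leave the Hdac2 genotype unchecked, and the words without Hdac2 and with Hdac2 below rest on the labels.

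Removing Hdac1 from oocytes without Hdac2 changed 7155 probe sets, 33.7% of those tested, 3566 higher (16.8%) and 3589 lower (16.9%). Although the numbers were nearly equal, the sizes were not: 453 probe sets were at least 2-fold higher (2.13%) and 117 at least 2-fold lower (0.551%), 138 were at least 4-fold higher (0.65%), and at 16-fold the counts were 33 higher (0.156%) and 1 lower (0.00471%). All 4 double-knockout arrays lay above all 4 Hdac2-knockout arrays in 3330 probe sets (15.7%) and below them in 3394 (16%). The balance of small changes depended on the scaling. The higher calls made up 49.8% as deposited, 35.6% after centring each array on its median, 42.2% after quantile normalization and 41.7% with dim probe sets left out.

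Few probe sets passed in the comparison made with Hdac2 present. Between the Hdac1 knockout and wild type 15 probe sets passed (0.0707%), of which 4 were higher (0.0189%) and 11 lower (0.0518%). These 8 arrays share with the other comparison only the estimate of spread. The interaction tests whether the double-knockout minus Hdac2-knockout difference departs from the Hdac1-knockout minus wild-type difference. It was past the threshold in 4939 probe sets (23.3%), 2479 higher (11.7%) and 2460 lower (11.6%). As a description across the 21218 probe sets, which are not independent replicates, the changes in the 2 settings had a Pearson r of -0.06.

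**Figure D1:**
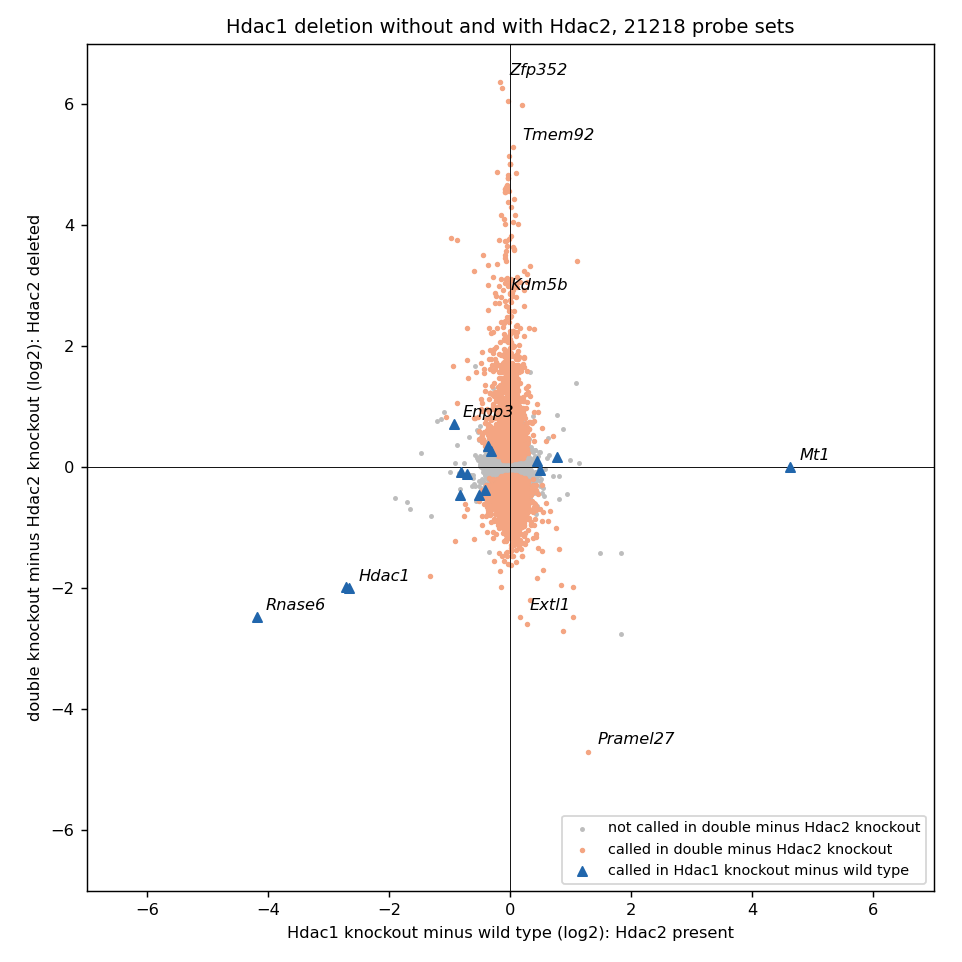
Log2 change of each of 21218 probe sets on Hdac1 deletion in oocytes without Hdac2 (vertical axis, double knockout minus Hdac2 knockout) against the change in oocytes with Hdac2 (horizontal axis, Hdac1 knockout minus wild type); orange points are called on the vertical axis and blue triangles on the horizontal one. Most called points lie along the vertical axis, with Zfp352 at 6.37, and the few triangles away from the centre are Hdac1, Rnase6 and Mt1.

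The highest rises, of Zfp352 and Rfpl4b, were in genes listed for the 2-cell embryo, the stage at which transcription of the mouse genome begins on a large scale. Of the 25 genes of that list 13 were measured, and 10 were higher and 2 lower, against 16.8% higher and 16.9% lower over all probe sets. The median change was 3.07, against 0 over all probe sets. The list was written with earlier results of these data known, so these shares only describe it. Members of the Usp17 family, which are close copies, are among its genes. Zfp352, a zinc finger protein gene of the 2-cell stage, stood at 10.61, 11.16, 11.16 and 11.14 in the double knockout and at 3.66, 6.68, 4.27 and 4.01 in the Hdac2 knockout. No double-knockout array came near an Hdac2-knockout array, and within the Hdac2 knockout replicate 2 was above the other arrays. The change was 6.37 (SE 0.43, limma adjusted p = 1.28e-08), or 82.5-fold in signal, and 7.04 without that replicate. Rfpl4b, a member of the ret finger protein-like genes, stood at 9.66, 10.39, 9.84 and 10.09 in the double knockout, against 3.72, 4.63, 3.88 and 3.51 in the Hdac2 knockout, a 66.9-fold rise in signal (limma adjusted p = 7.00e-13). Here too replicate 2 was the highest of the Hdac2-knockout arrays. Tmem92, a membrane protein gene, stood at 8.4, 9.39, 9.20 and 9.31 in the double knockout and between 3.60 and 4.09 in the Hdac2 knockout.

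The deubiquitinases of the Usp17 family rose together. Usp17la was at 10.33, 10.28, 9.91 and 10.40 in the double knockout and at 6.51, 6.07, 6.04 and 6.08 in the Hdac2 knockout, a 16.6-fold rise (limma adjusted p = 5.74e-13). Usp17lb rose 28.5-fold, and Usp17lc and Usp17ld, named after their values were seen, rose 8.4-fold and 3.59-fold. Among the TD and POZ domain genes, which are related to the ubiquitin ligase adaptor Spop, Tdpoz3 rose 63.4-fold, Tdpoz8 29.1-fold and Spopfm2 32.3-fold. Spopfm2 stood at 9.26, 9.77, 9.42 and 9.55 in the double knockout and at 4.56, 4.68, 4.29 and 4.41 in the Hdac2 knockout, and at 4.49 in both other genotypes. Its 3 probe sets carry the same values, and members of these multigene families are close copies, so a probe set may read more than its named gene. The 2 list members that were lower, Zfp750 (-0.71) and Obox5 (-0.26), are also named after their values were seen and stood above 8 in each genotype.

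Promoter sequence is shown for 5 genes that rose, to set the 2-cell stage genes beside 2 genes of other roles described below; the sequences are RefSeq's for GRCm38.p6, from 250 bases before to 50 bases after the annotated start, on the gene's strand, 5′ to 3′, with each CG dinucleotide, the site of DNA methylation in mammals, in capitals. They lie at chr4:90218570-90218869 (+ strand) for Zfp352, chr10:38821730-38822029 (- strand) for Rfpl4b, chr7:104856766-104857065 (+ strand) for Usp17la, chr11:102665335-102665634 (+ strand) for Meioc and chr1:134559928-134560227 (+ strand) for Kdm5b.
Zfp352: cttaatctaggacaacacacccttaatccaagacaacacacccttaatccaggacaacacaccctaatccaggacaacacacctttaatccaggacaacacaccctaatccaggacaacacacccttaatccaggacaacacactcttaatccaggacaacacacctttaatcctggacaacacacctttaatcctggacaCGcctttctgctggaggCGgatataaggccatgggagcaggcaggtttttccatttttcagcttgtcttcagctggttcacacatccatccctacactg
Rfpl4b: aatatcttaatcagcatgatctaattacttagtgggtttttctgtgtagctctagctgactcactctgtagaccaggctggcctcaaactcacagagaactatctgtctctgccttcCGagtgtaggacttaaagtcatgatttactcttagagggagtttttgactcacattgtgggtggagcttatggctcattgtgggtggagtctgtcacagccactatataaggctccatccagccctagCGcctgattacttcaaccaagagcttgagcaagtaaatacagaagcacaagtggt
Usp17la: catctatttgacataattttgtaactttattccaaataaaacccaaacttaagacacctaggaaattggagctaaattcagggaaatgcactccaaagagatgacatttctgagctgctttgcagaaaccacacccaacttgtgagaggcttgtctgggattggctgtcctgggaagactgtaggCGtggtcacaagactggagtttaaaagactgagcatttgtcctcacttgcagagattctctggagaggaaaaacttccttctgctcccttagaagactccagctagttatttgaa
Meioc: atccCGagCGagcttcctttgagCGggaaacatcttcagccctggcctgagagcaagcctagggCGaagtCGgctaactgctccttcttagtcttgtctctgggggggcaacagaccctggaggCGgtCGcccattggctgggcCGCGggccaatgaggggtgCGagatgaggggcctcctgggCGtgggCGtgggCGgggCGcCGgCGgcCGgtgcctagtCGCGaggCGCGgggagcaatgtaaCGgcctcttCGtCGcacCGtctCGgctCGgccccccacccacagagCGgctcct
Kdm5b: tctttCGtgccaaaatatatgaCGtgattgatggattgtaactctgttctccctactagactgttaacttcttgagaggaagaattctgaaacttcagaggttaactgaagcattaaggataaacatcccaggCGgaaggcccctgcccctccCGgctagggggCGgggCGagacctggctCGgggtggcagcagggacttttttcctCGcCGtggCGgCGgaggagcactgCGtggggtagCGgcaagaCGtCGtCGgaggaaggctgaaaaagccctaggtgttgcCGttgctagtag
Zfp352, Rfpl4b and Usp17la held 2, 2 and 1 CG dinucleotides in 300 bases, while Meioc held 28 and Kdm5b 17. Over the 14739 tested genes with a promoter in the table the median was 15, and 24.4% of them held fewer than 5. The 90 genes at least 4-fold higher had a median of 8, and 38.9% held fewer than 5, whereas all 2408 higher genes had a median of 20 and 14.5% with fewer than 5. Lower genes had a median of 20, and those at least 2-fold lower a median of 13. The motif GGGCGG, the GC box, was found on either strand in 51.1% of the promoters of genes at least 4-fold higher, in 42.9% of those at least 2-fold lower and in 50.3% of all. The matching shares for the TATA box, TATAAA, were 15.6%, 15.4% and 12.3%. These shares describe the letters in this window alone, and the genes were picked by the same contrast.

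Genes of other kinds were among the most raised as well. Cd24a, a small surface glycoprotein anchored in the membrane, stood at 10.36, 10.56, 10.38 and 10.49 in the double knockout, against 5.86, 5.73, 4.93 and 5.73 in the Hdac2 knockout, a 29.5-fold rise. Grp, which encodes gastrin-releasing peptide, rose 35.3-fold, and Gpx2, a glutathione peroxidase, 18.2-fold. Zfp711, an X-linked zinc finger transcription factor, stood at 8.35, 8.02, 8.02 and 8.09 in the double knockout and at 3.44, 3.41, 3.33 and 3.63 in the Hdac2 knockout (25.4-fold, limma adjusted p = 5.34e-16). The arrays within each group lay close together. Xkrx, of the XK membrane protein family, rose 23.8-fold, Pramel17, of the PRAME family, 20.9-fold, Phf11a, a PHD finger gene, 19.8-fold, and the pseudogene Zfp353-ps 17.2-fold. The 15 most raised genes averaged between 3.45 and 5.56 in the Hdac2 knockout and between 3.11 and 4.69 in the Hdac1 knockout, with wild type between 3.16 and 4.91. The table used here gives no detection calls, so the folds are ratios of deposited signals, and whether these genes were above background in the lower groups was not measured. Double-knockout replicate 1 was the lowest of its group in 10 of these 15 genes, Zfp352 and Tmem92 among them.

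**Figure D2:**
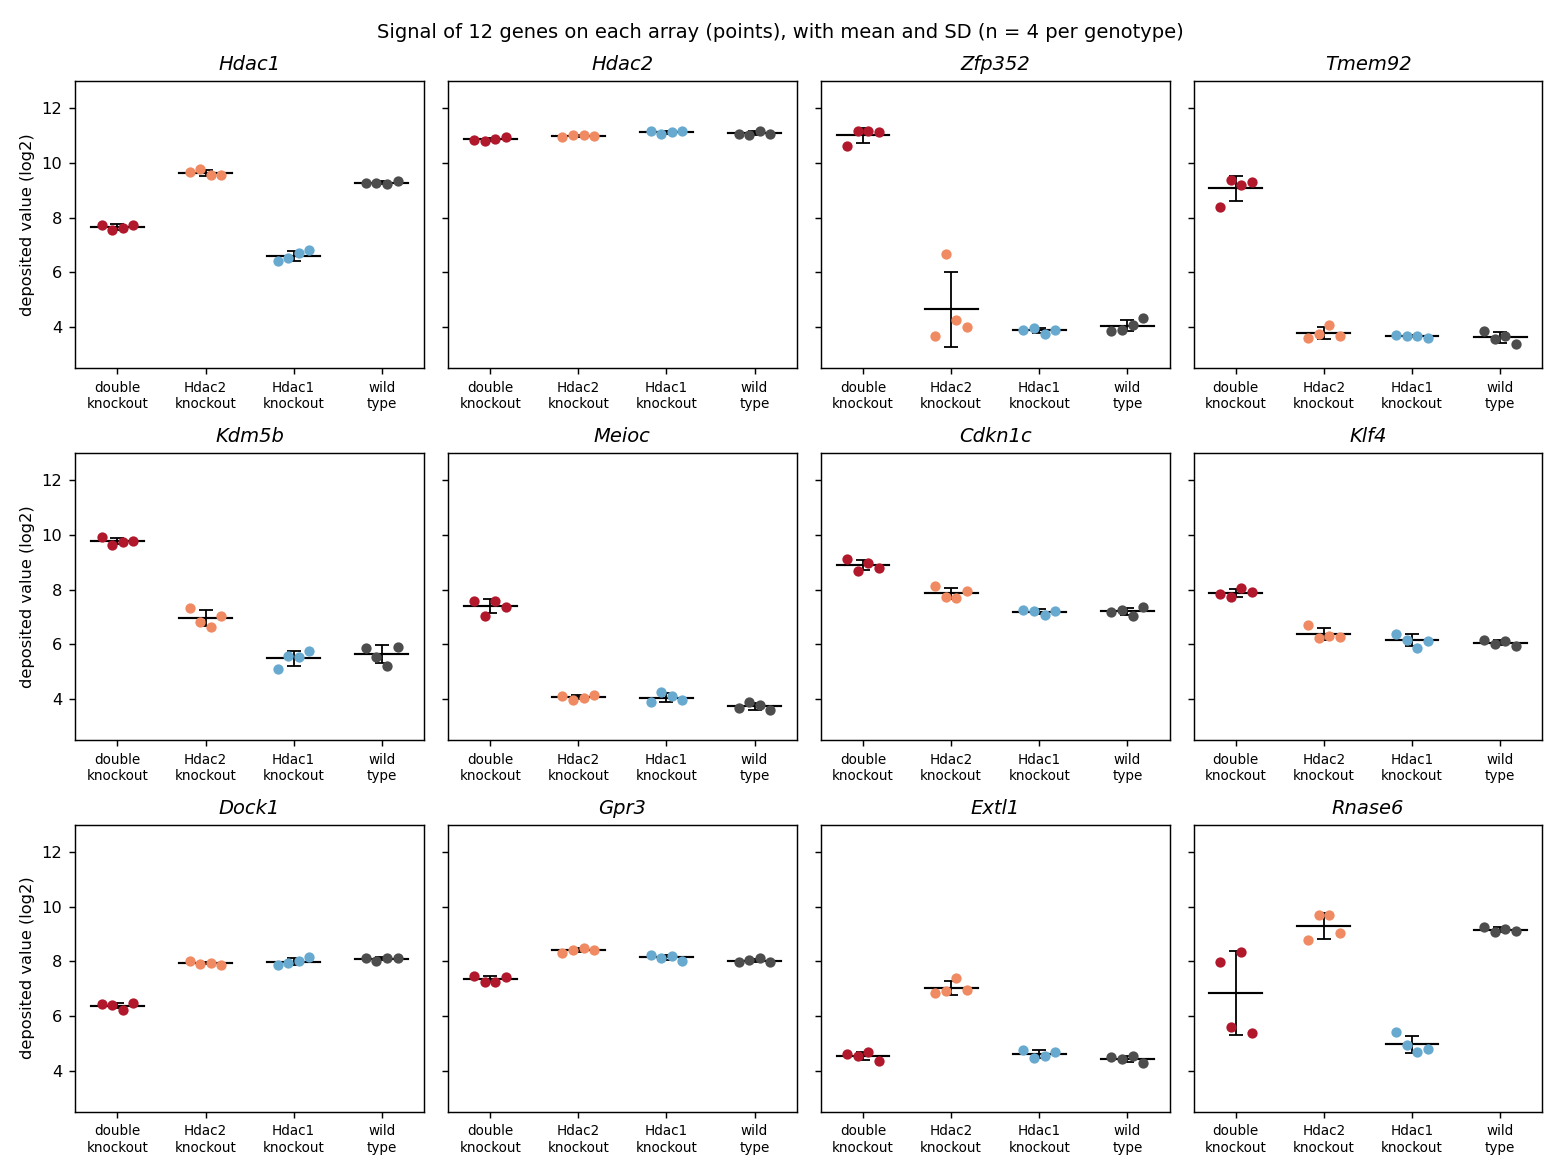
Deposited log2 value of 12 genes on each array (points) with the mean and SD of each genotype (n = 4, horizontal line and bar), in the order double knockout, Hdac2 knockout, Hdac1 knockout and wild type. Zfp352 and Tmem92 are near 4 outside the double knockout but for 1 Hdac2-knockout array at 6.68, Kdm5b averages 9.77 in the double knockout and 6.96 in the Hdac2 knockout, and Extl1 is at 7.03 in the Hdac2 knockout and near 4.5 elsewhere.

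Of 8 H3K4 demethylases, which remove a mark of active promoters, 3 were higher and 1 lower, against 16.8% higher and 16.9% lower over all probe sets. Kdm5b, one of them, stood at 9.92, 9.64, 9.75 and 9.79 in the double knockout, against 7.34, 6.82, 6.63 and 7.05 in the Hdac2 knockout. The groups were well apart, and the rise was 7.04-fold (SE 0.17 on the log2 scale, limma adjusted p = 2.91e-09). The Hdac1 knockout averaged 5.48 and wild type 5.64. The other higher calls of this list were Riox1 and Kdm1a. Riox1 rose by 0.71, but its other, dimmer probe sets differed by 0.03 and 0.22 and were not called. Kdm1a rose by 0.15 and lost its call in 7 alternative settings. Kdm3a, which removes H3K9 methylation, a mark of silent chromatin, rose 2.39-fold. In its list of 15 heterochromatin genes 5 were higher and 7 lower (80% called, against 33.7% over all probe sets), with Atrx, a remodeller of heterochromatin, lower by 0.39 on the log2 scale and Kdm4a, a demethylase of H3K9 and H3K36, lower by 0.46.

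Genes of proteins that write and read histone acetylation were more often called lower than higher. Lower calls were also the more frequent among bright probe sets. At wild-type values of 6.46 to 8.80, 33.5% of probe sets were lower and 20.6% higher, and from 8.80 up 29.6% and 19.4%. None of 12 measured histone acetyltransferases was higher by limma and 5 were lower, against 16.9% lower over all probe sets; after centring on the median 8 were lower, and 1 was higher with dim probe sets left out or without double-knockout replicate 3. Kat6b, an acetyltransferase of histone H3, stood at 8.63, 8.68, 8.4 and 8.70 in the double knockout and at 9.52, 9.62, 9.57 and 9.65 in the Hdac2 knockout. All 4 double-knockout arrays were below, and the fall was 0.99 (limma adjusted p = 7.49e-09). Kat2a fell by 0.41, Kat6a by 0.37 and Kat5 by 0.35. All the measured acetyltransferases but Kat2b averaged above 6.46 in wild type. Of 20 bromodomain genes, whose products bind acetylated lysines, 10 were lower and 2 higher (60% called, against 33.7% over all probe sets), with Baz2b lower by 0.67, Bptf by 0.65, Atad2b by 0.64 and Brpf3 by 0.50. The named bromodomain genes averaged 7.49 to 10.53 in wild type, levels at which lower calls were more frequent than over all probe sets.

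Among the 18 deacetylases and sirtuins, Hdac1 itself included, 2 were higher and 4 lower. The share called was 33.3%, near the 33.7% over all probe sets. Hdac1, whose fall is given by the deletion itself, is among the 4. Hdac8, a class I enzyme on the X chromosome, fell to 6.87 ± 0.20 in the double knockout, against 7.66 ± 0.07 in the Hdac2 knockout (SD, n = 4 each). Hdac5, a class II enzyme, rose by 0.71 and was dim, at 4.36 in the double knockout and 3.65 in the Hdac2 knockout, and Sirt7 fell by 0.41. Of the NuRD subunits 2 of 12 were higher and 3 lower (41.7% called), with Mta2 up by 0.99 on the probe set chosen for it and 0.0 on its other, dimmer probe set, and Chd5 and Mta1 down by 0.61 and 0.34. In the Sin3 list 4 of 14 were higher and 1 lower (35.7% called, again near 33.7%), with the largest rise in Ing2, a reader of H3K4 methylation, which rose 2.54-fold. In CoREST and MiDAC 4 of 13 were higher and 2 lower (46.2% called), and Phf21a, a CoREST subunit that reads unmethylated H3K4, fell by 1.08.

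No Polycomb gene of 23 was higher and 6 were lower (26.1% called, against 33.7% over all probe sets), among them Suz12 (-0.39), Phf1 (-0.34) and Eed (-0.31), while without double-knockout replicate 2 there was 1 higher call. On its other, dimmer probe set Eed differed by 0.02 (limma adjusted p = 0.91). Of 14 H3K4 methyltransferase genes 3 were higher and 5 lower (57.1% called), with Kmt2a up 1.83-fold. The DNA methylation list had 2 higher and 2 lower of 12 (33.3% called, near the share over all probe sets): Dnmt3b, a de novo methyltransferase, rose 1.53-fold, and Dnmt3l, its cofactor, which is needed in growing oocytes to methylate imprinted regions, fell to 6.11 ± 0.47 in the double knockout, against 7.05 ± 0.28 in the Hdac2 knockout (SD, n = 4 each; difference -0.94, limma adjusted p = 0.000549). Double-knockout replicate 3 was the lowest array for Dnmt3l, at 5.41.

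Of 8 cyclin-dependent kinase inhibitors, which restrain the cell cycle, 7 were higher and 0 lower, against 16.8% and 16.9% over all probe sets, with a median change of 0.54; 4 were higher with dim probe sets left out, which leaves fewer members in the test. Cdkn1c, which encodes p57, stood at 9.12, 8.69, 8.97 and 8.79 in the double knockout, against 8.13, 7.72, 7.69 and 7.94 in the Hdac2 knockout, a 2.03-fold rise (limma adjusted p = 1.50e-06). Cdkn1a, which encodes p21 and is a standard target of p53, stood at 6.03, 5.76, 6.28 and 5.62 in the double knockout and at 5.24, 4.73, 4.83 and 4.97 in the Hdac2 knockout. Both genes were separated between the groups by under 1 unit at their nearest arrays. Cdkn3, a phosphatase acting on CDKs, rose 2.51-fold and Cdkn2c 1.49-fold.

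The wider p53 list had 13 higher and 5 lower of 30, against 16.8% higher and 16.9% lower over all probe sets. Plk2 and Plk3, polo-like kinases induced by stress, rose 3.99-fold and 3.15-fold, Btg2, an antiproliferative gene, rose 2.51-fold, and Polk, a translesion DNA polymerase, fell by 0.94. Of 13 pro-apoptotic genes 4 were higher and 1 lower (38.5% called, near the 33.7% over all probe sets): Bcl2l11, the gene of BIM, rose 1.99-fold, Pmaip1, the gene of NOXA, 1.74-fold, and Bbc3, the gene of PUMA, 1.22-fold. The anti-apoptotic list had 3 higher and 2 lower of 13 (38.5% called as well), with Mcl1 up 1.28-fold and Bcl2l1 down by 0.36.

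Of 22 immediate-early and stress-response factors, some of which cells induce within minutes of a stimulus or of handling, 13 were higher and 1 lower. Over all probe sets 16.8% were higher and 16.9% lower. With dim probe sets left out 7 of the list were higher. Klf4 stood at 7.82, 7.71, 8.07 and 7.90 in the double knockout, against 6.72, 6.24, 6.31 and 6.28 in the Hdac2 knockout (2.80-fold). Egr1 rose 2.27-fold and Fos 2.38-fold. Jun and Atf3, named after their values were seen, averaged 6.57 ± 0.92 and 7.47 ± 0.63 in the double knockout and 4.32 ± 0.15 and 5.63 ± 0.41 in the Hdac2 knockout (SD, n = 4 each). The spread of both was wider in the double knockout. In the list of the unfolded protein and integrated stress responses 6 of 19 were higher and 2 lower (42.1% called, against 33.7%). Dnajb9, a co-chaperone of the endoplasmic reticulum, rose 3.43-fold, and Sesn2, a stress-induced inhibitor of mTORC1 signalling, 1.58-fold. No source used here describes how each pool was handled, and the part of handling in these results was not tested.

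Meioc and Stra8, genes of meiotic entry, rose. Meioc, which acts with YTHDC2 to stabilise the meiotic programme in germ cells, stood at 7.58, 7.05, 7.57 and 7.36 in the double knockout, against 4.09, 3.95, 4.05 and 4.14 in the Hdac2 knockout. The 10.1-fold rise (limma adjusted p = 1.15e-12) separated the groups by almost 3 units. Stra8, the retinoic-acid-responsive gene of meiotic entry, stood at 5.83, 4.47, 4.92 and 4.77 in the double knockout, against 3.15 to 3.51 in the Hdac2 knockout, a 3.18-fold rise. Of the 21 meiotic prophase genes 5 were higher and 4 lower (42.9% called, against 33.7% over all probe sets), and Sycp2, of the chromosome axis, fell by 0.79. In the list of piRNA and small RNA genes 4 of 24 were higher and 12 lower, against 16.8% higher and 16.9% lower over all probe sets, or 7 lower without double-knockout replicate 4 or without Hdac2-knockout replicate 2. Henmt1, which methylates piRNA ends, fell by 0.84 and Tdrd9 by 0.76, whereas Ago1, an Argonaute protein, rose 3.16-fold.

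Of 20 maternal-effect genes, whose stored products serve the early embryo, 1 was higher and 2 lower (15% called, against 33.7% over all probe sets), with Trim28 up by 0.37 and Bnc1 down by 0.41, and of 15 zona pellucida and secreted-factor genes 1 was higher and 3 lower (26.7% called), with Fgf8 down by 0.52. Of 14 oocyte transcription factors 3 were higher and 3 lower (42.9% called). Sohlh1, which acts in early follicles, rose by 0.92, with replicates 1 and 3 of the double knockout at 7.55 and 7.59 and replicates 2 and 4 at 6.82 and 6.75, and Figla, which activates the zona genes, fell by 0.39.

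Gpr3, the receptor that keeps cyclic AMP high and holds the oocyte in prophase, stood at 7.45, 7.26, 7.24 and 7.44 in the double knockout, against 8.30, 8.42, 8.50 and 8.43 in the Hdac2 knockout. Its ranges were narrow and apart, and the fall was 1.07 (SE 0.07, limma adjusted p = 5.47e-09). Pde3a, the phosphodiesterase that breaks cyclic AMP down at resumption, fell by 0.65, Mastl, the Greatwall kinase, by 0.39, while Cdc25b, the phosphatase that activates CDK1, rose 2.13-fold. In that list of 24 maturation regulators 3 were higher and 8 lower, against 16.8% higher and 16.9% lower over all probe sets.

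Among genes of translation and energy supply the changes were small. Of 58 ribosomal protein genes 31 were higher and 1 lower, with a median change of 0.20, and of 56 oxidative phosphorylation genes 33 were higher and 1 lower, with a median of 0.19. Over all probe sets 16.8% were higher and 16.9% lower. After centring on the median the higher counts were 23 and 22, and the lower counts were 2 and 3. Rps19 rose 1.64-fold and Ndufa12, of complex I, 1.62-fold. The RNA polymerase II list had 9 higher and 8 lower of 45 (37.8% called, near the 33.7% over all probe sets), with Med12 down by 0.66 and Cdk9, the kinase that releases paused polymerase, up 1.49-fold.

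Genes of other lineages were among those called. Dsp, the desmosomal plaque protein desmoplakin, stood at 8.51, 8.07, 8.23 and 8.09 in the double knockout, against 5.34, 5.06, 5.08 and 5.23 in the Hdac2 knockout (8.28-fold), while its other, dimmer probe set differed by -0.06 (limma adjusted p = 0.759). In the keratin and epithelial adhesion list 11 of 30 were higher and 4 lower (50% called, against 33.7% over all probe sets), with Krt15 up 2.80-fold and Ocln, a tight-junction protein, down by 0.71. Nefm, a neurofilament subunit, stood at 6.70, 6.56, 6.19 and 6.36 in the double knockout and at 3.78, 3.72, 3.69 and 3.57 in the Hdac2 knockout, a 6.79-fold rise; 8 of 24 genes repressed by REST were higher and 3 lower (45.8% called), and Rest itself fell by 0.53. Of 43 Wnt pathway genes 12 were higher and 7 lower (44.2% called), among them Fzd2, a Wnt receptor, up 5.14-fold. In the list of 22 amino acid transporters 8 were higher and 3 lower (50% called). Slc1a1, which carries glutamate and aspartate, rose to 7.91 ± 0.19 in the double knockout, against 5.59 ± 0.26 in the Hdac2 knockout (SD, n = 4 each), a 4.97-fold rise, and the neutral amino acid carrier Slc7a5 rose 1.70-fold.

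Imprinted genes, expressed from 1 parental copy in the embryo, were called in 62.1% of 29 cases, 8 higher and 10 lower, against 33.7% over all probe sets. The 4 with the smallest adjusted p were all higher: Slc22a18 rose 2.47-fold, Peg10, a gene derived from a retrotransposon, 2.73-fold, Grb10, an adaptor that restrains insulin signalling, 2.26-fold, and Igf2, the fetal growth factor, 1.94-fold. The lower members of the list include Usp29 (-1.06) and Peg3 (-1.02), which are neighbours in 1 imprinted cluster and are named after their values were seen. Peg10 averaged 9.83 in the double knockout, 8.38 in the Hdac2 knockout and 8.89 in wild type. Of 20 measured core histone genes 3 were higher and 2 lower (25% called). Among the higher, H4c6 lost its call in 10 alternative settings and H4c9 in 6. H3c7 was dim, at 3.65 in the double knockout and 3.01 in the Hdac2 knockout. In the list of 22 pluripotency factors 4 were higher and 7 lower (50% called), with Klf17, an oocyte Krüppel-like factor, down by 0.43 and Esrrb by 0.92.

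**Figure D3:**
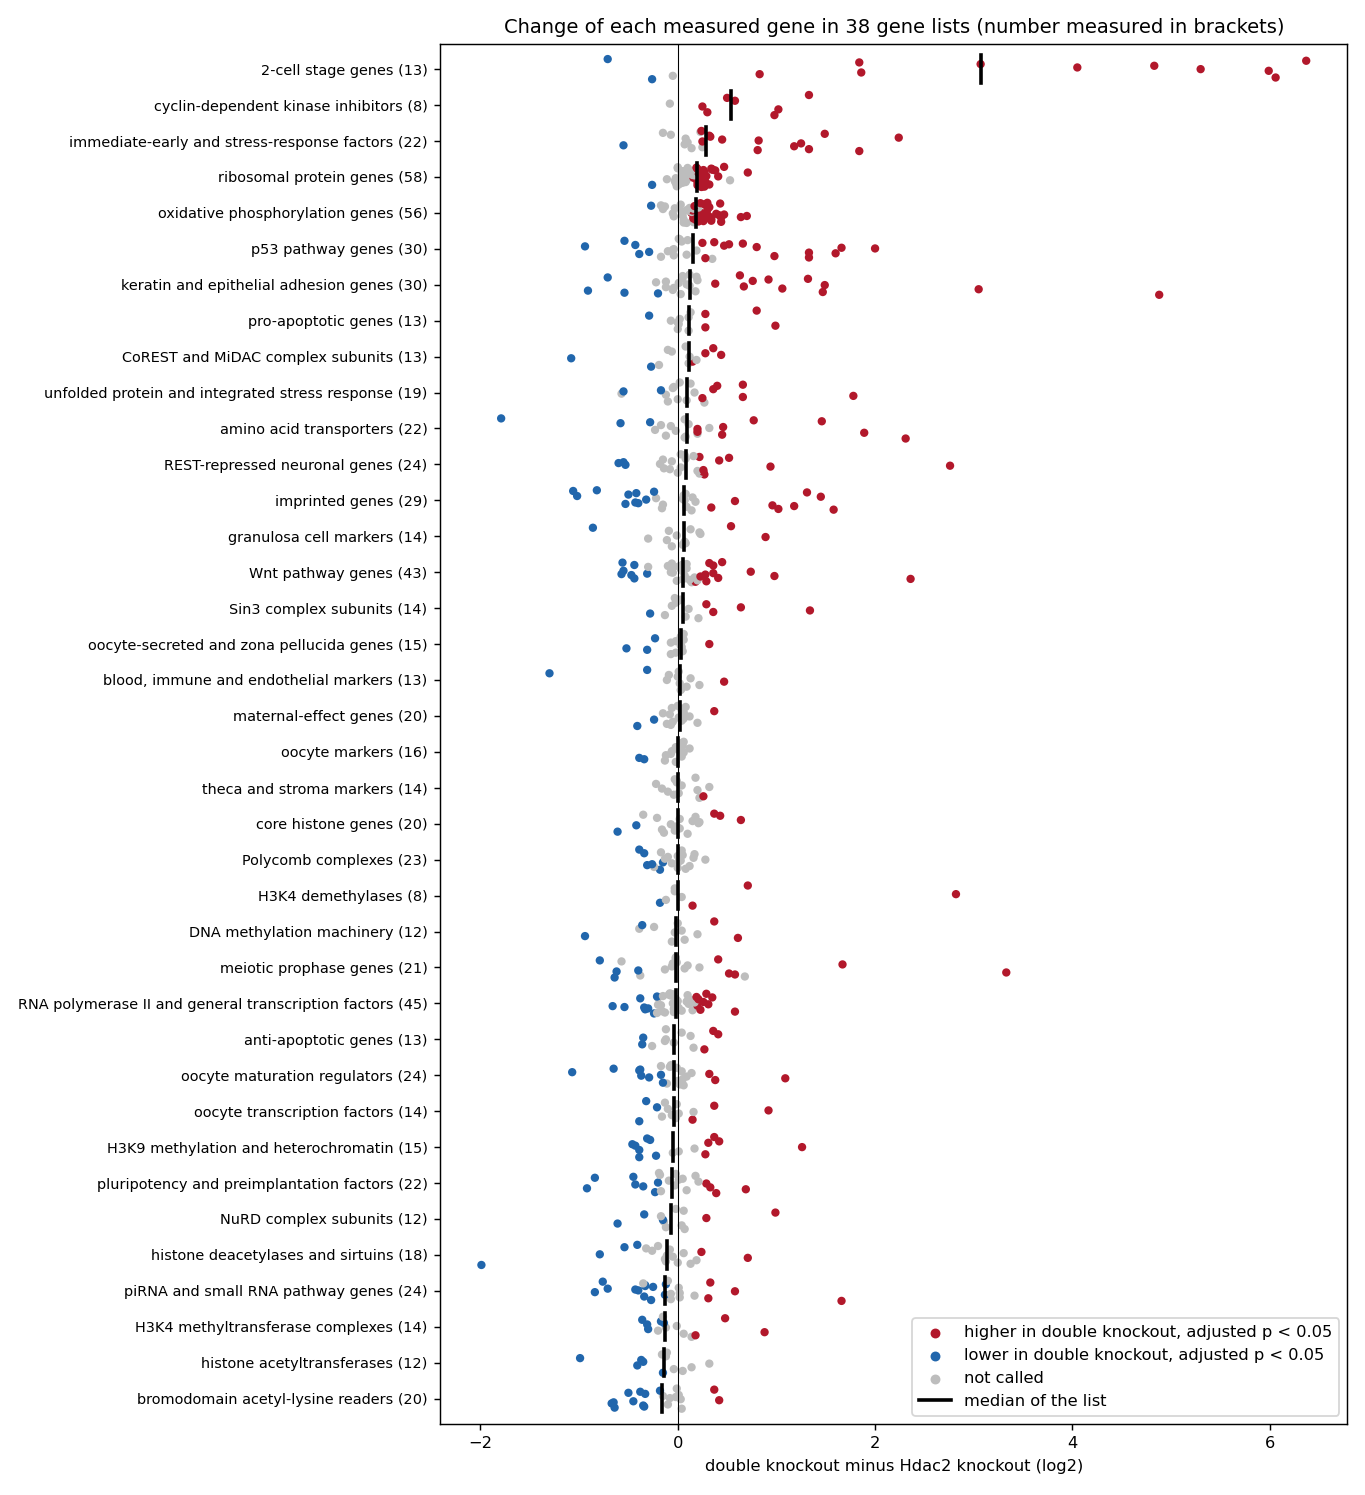
Log2 change of each measured gene (points; red higher and blue lower in the double knockout at a limma adjusted p under 0.05, grey not called) in 38 lists, double knockout minus Hdac2 knockout, with the median of each list as a black bar. The list of 2-cell stage genes has the highest median, 3.07, and the bromodomain list the lowest, -0.16.

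Of the 15 genes named for the largest falls, Hdac1 included, 13 had their highest mean of the 4 genotypes in the Hdac2 knockout and 2, Hspb1 and Dock1, in wild type. These genes were picked by a contrast that uses the Hdac2-knockout arrays. Extl1, an exostosin-like glycosyltransferase gene, stood at 4.61, 4.55, 4.68 and 4.36 in the double knockout, against 6.84, 6.93, 7.39 and 6.94 in the Hdac2 knockout, with 4.61 in the Hdac1 knockout and 4.44 in wild type. It was 5.56-fold lower (SE 0.11 on the log2 scale, limma adjusted p = 4.26e-11), to a mean between those of the other genotypes. Dock1, an activator of the small GTPase Rac, stood in double-knockout oocytes at 6.43, 6.41, 6.23 and 6.46, against 8.0, 7.92, 7.94 and 7.87 in the Hdac2 knockout, with 7.99 in the Hdac1 knockout and 8.10 in wild type. Chic1 (2.96-fold lower), Steap4, a metal reductase (3.57-fold lower), and Hspb1 (3.01-fold lower) also fell. For Hspb1, a small heat shock protein, the other 2 probe sets rose, by 2.11 and 2.14, so the gene's direction was not settled.

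Some genes split the arrays of a genotype into high and low values. Pramel27 stood at 5.13, 5.05, 4.53 and 4.94 in the double knockout and at 9.55, 9.47, 9.46 and 9.98 in the Hdac2 knockout, with 9.77, 9.36, 5.84 and 9.46 in the Hdac1 knockout and 9.66, 4.93, 5.03 and 9.65 in wild type. Wild-type replicates 2 and 3 were low, and they were also the low ones in Tceanc2 and Dhrs3, both of chromosome 4 like Pramel27. The fall of Dhrs3 (-1.94, limma adjusted p = 0.0219) was lost without double-knockout replicate 4 (adjusted p = 0.052) or Hdac2-knockout replicate 4 (adjusted p = 0.0577). Rnase6, a ribonuclease, stood at 7.97, 5.61, 8.33 and 5.39 in the double knockout, against 8.78, 9.68, 9.71 and 9.03 in the Hdac2 knockout, and double-knockout replicates 2 and 4 were the low ones in Slc7a8 too (5.20, 4.18, 5.37 and 4.05). Both genes are on chromosome 14, and the cause of the split was not tested. Zfp109, a zinc finger gene of chromosome 7, stood at 8.45, 8.26, 6.05 and 5.97 in the double knockout, where replicates 3 and 4 were low, against 8.67, 9.33, 9.22 and 9.39 in the Hdac2 knockout.

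Chromosome 4, which carries Hdac1, held 21 of the 117 probe sets at least 2-fold lower, or 17.9%, though it held 5.99% of those tested. The share of its tested probe sets that were at least 2-fold lower was 1.65%, against 0 to 1.06% on the other chromosomes. They belong to 16 genes, Hdac1 included, and 9 of the 16 were called higher in the Hdac2 knockout than in wild type (2.86% of all probe sets were), a comparison that shares the Hdac2-knockout arrays. The nearest to Hdac1, Iqcc, named after its values were seen, lies 4 tested genes away and stood at 5.0 in the double knockout, 6.19 in the Hdac2 knockout, 5.29 in the Hdac1 knockout and 5.16 in wild type. Over the 100 genes nearest Hdac1 22 were higher and 18 lower (40%), against 38% called among genes farther away on chromosome 4 and 33.8% among all genes outside the 100.

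**Figure D4:**
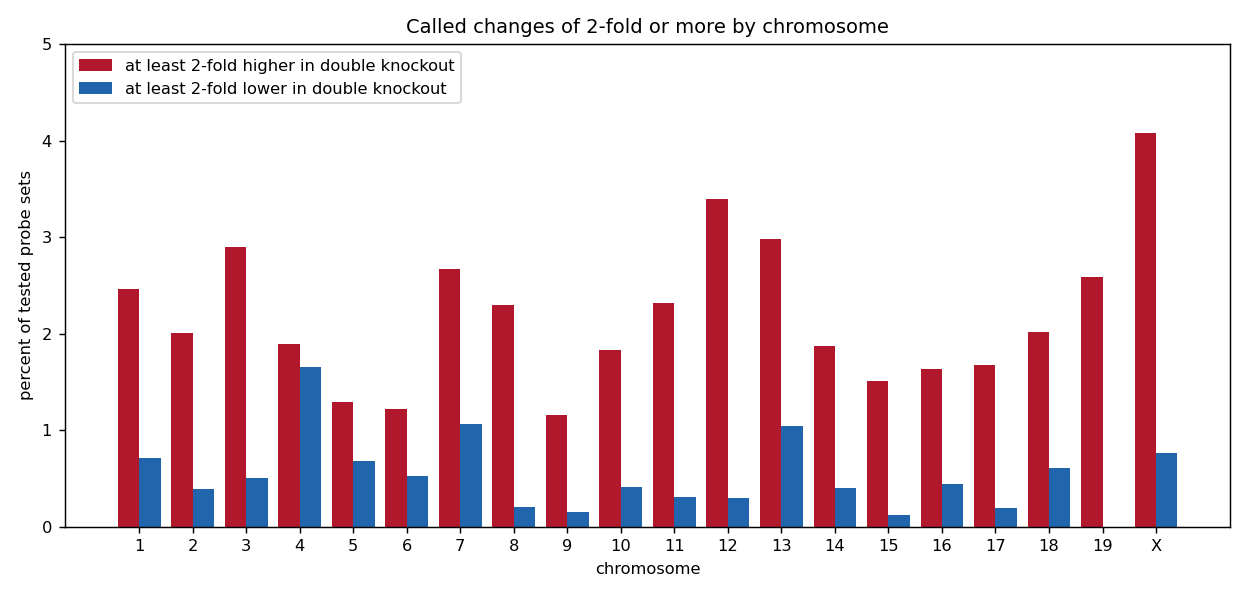
Percent of the tested probe sets of each chromosome that were called and at least 2-fold higher (red) or 2-fold lower (blue) in the double knockout than in the Hdac2 knockout. Chromosome 4 has the highest blue bar, 1.65%, and the X chromosome the highest red bar, 4.08%.

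The share of lower calls varied more than that of higher calls with the level in wild type, read on arrays outside this comparison. The probe sets were divided by wild-type value into 5 classes of like number. In the lowest class, from 2.62 to 3.65, 8.53% were higher and 1.81% lower, whereas in the next-to-highest class, from 6.46 to 8.80, 20.6% were higher and 33.5% lower. From the middle class up 20.4%, 20.6% and 19.4% were higher. The rises of at least 2-fold lay mostly in the 3 lower classes, with 70, 125 and 174, against 80 and 4 in the 2 upper ones. The matching falls numbered 0, 1, 24, 65 and 27. Values near the floor of the array cannot fall far, so these counts describe where changes could be measured as well as where they were. The shares over all probe sets given beside the gene lists do not take the level of the members into account.

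**Figure D5:**
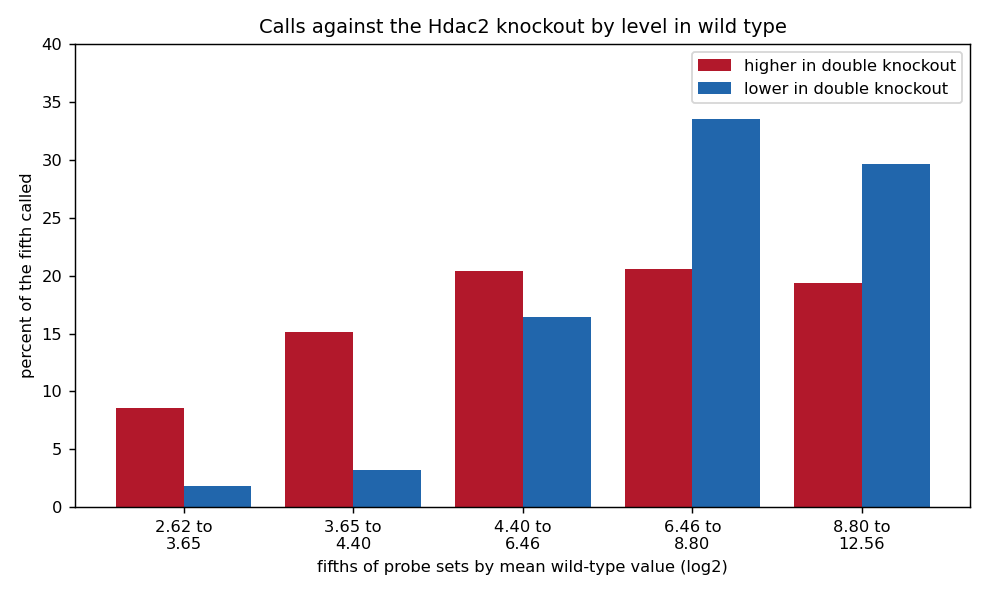
Percent of the probe sets in each of 5 classes of like number by mean wild-type value (log2) that were called higher (red) or lower (blue) in the double knockout than in the Hdac2 knockout. The lower calls reach 33.5% and 29.6% in the 2 upper classes, against 1.81% in the lowest.

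A few genes were called in both settings, between genotypes whose labels differ by the Hdac1 deletion. The part of the transgene in the comparison with wild type was not tested. Of the 15 probe sets called between the Hdac1 knockout and wild type, which belong to 14 genes, 9 were also called between the double and the Hdac2 knockout; that is 60% of the 15 and 0.126% of the 7155, against 33.7% over all probe sets. Of the 9, 6 went the same way and 3 the opposite way. Both Hdac1 probe sets, whose fall is given by the deletion itself, are among the 6. Prep, a prolyl oligopeptidase, stood at 10.36 to 10.63 in the double knockout, against a mean of 10.95 ± 0.07 in the Hdac2 knockout (SD, n = 4; difference -0.45), and differed by -0.83 between the Hdac1 knockout and wild type. Poglut2, an enzyme that adds glucose to proteins, fell by 0.45 without Hdac2 and by 0.52 with it. Wasf1, an activator of actin nucleation, rose by 0.35 without Hdac2 and fell by 0.36 with it, and the interaction passed (0.72, limma adjusted p = 7.79e-07). Of the 15 probe sets 5 lie on chromosome 10, which carries Hdac2 and 4.64% of the probe sets tested.

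Mt1, which encodes a metal-binding metallothionein, had an interaction of -4.62. It stood at 10.99, 11.14, 11.10 and 11.05 in the double knockout and at 11.01, 10.99, 11.20 and 11.02 in the Hdac2 knockout, which overlapped (0.01, limma adjusted p = 0.928). The Hdac1 knockout was as high, at 11.14 ± 0.21, and wild type stood at 6.51 ± 0.10 (SD, n = 4 each). Among the genes with the smallest interaction p, Klk7, a serine protease, rose 10.6-fold, Mal2, a membrane traffic protein, 13.7-fold, and Rln1, the relaxin gene, 14.1-fold without Hdac2, and differed by -0.07, -0.02 and 0.01 with it. Eif4g3, a translation initiation factor, fell by 0.89 without Hdac2 and differed by 0.13 with it.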

How the data were processed

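The deposited table holds 1 log2 expression value per probe set and array. Per the submitters' processing notes the authors made these values with MAS5, whose version is not given, and the design text also names GeneSpring v7 and a 1.4-fold limit. The log2 base is inferred from the values, which run from 2.07 to 12.89. The values were used as deposited: array medians lay between 4.46 and 4.59. Of 35556 probe sets, 21218 with exactly 1 symbol were tested, 12457 had none and 1881 several. limma 3.58.1 in R 4.3.3 fitted 1 mean per genotype over 16 arrays (12 residual degrees of freedom), with two-sided moderated tests and Benjamini-Hochberg adjustment over all tested probe sets. The interaction is the double-knockout minus Hdac2-knockout difference less the Hdac1-knockout minus wild-type difference. The fit was tested on simulated data. For a gene with several probe sets, the one brightest over the 16 arrays was used.

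Genes were named by rule: Hdac1 and Hdac2, up to 15 higher and 15 lower with the largest changes whose arrays did not overlap and whose higher mean exceeded the median probe set, up to 4 called members per list by adjusted p, up to 5 called in both Hdac1 deletions, and up to 5 in each direction by the interaction. The members, lists and rule were chosen with earlier results of these data known. Promoters and chromosomes are RefSeq's (GRCm38.p6), and 21185 probe sets matched. No read depth applies to arrays, so the number of arrays limits precision. Replicates with the same number were not paired: their residuals correlated at -0.08 to 0.03. Alternatives changed the arrays fitted, scaling, dim-probe filter, probe sets tested, replicate block, fold limit and arrays left out. Python 3.11.15 with pandas 2.3.3, scipy 1.17.1 and matplotlib 3.10.9 made summaries, exact permutation tests and plots.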

Additional observations from a re-analysis of the deposited data

Results flagged for a closer look

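Within the 4 arrays of a genotype, 25 of 350 tests (7.14%) found an array whose gap to its nearest neighbour, as a share of the group's range, exceeded Dixon's 95% critical value for 4 samples, where chance gives about 1 in 20. Double-knockout replicate 1 was low in Zfp352 (0.96), Tdpoz3 (0.911), Pramel17 (0.846) and Zfp353-ps (0.833), and high in Ddx4 (0.894). Double-knockout replicate 3 was low in Tdpoz8 (0.888), Bptf (0.893), Dnmt3l (0.913), Esrrb (0.911) and Nlrp2 (0.88), and high in Gja1 (0.915). Replicate 2 of that group was low in Cdk9 (0.905), and replicate 4 was high in Slc7a3 (0.831) and low in Rln1 (0.861). Among Hdac2-knockout arrays, replicate 1 was high in Klf4 (0.838) and Usp17la (0.931) and low in Esrrb (0.915), while replicate 2 was high in Tdpoz3 (0.985) and low in Fos (0.887). Replicate 3 was low in Cd24a (0.867), Hdac8 (0.832), Kdm3a (0.862) and Slc22a18 (0.8294) and high in Pecam1 (0.884), and replicate 4 was high in Pramel27 (0.839).

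By limma's interaction test, the double-knockout minus Hdac2-knockout difference departed from the Hdac1-knockout minus wild-type difference in 4939 probe sets. The part of the transgene in this count was not tested. The interaction was positive for Hdac1 (0.68), Spopfm2 (5.01), Zfp711 (4.72), Klk7 (3.48), Mal2 (3.80), Rln1 (3.80), Prep (0.38) and Wasf1 (0.72). It was negative for Mt1 (-4.62), Extl1 (-2.65), Dock1 (-1.45), Gpr3 (-1.18) and Eif4g3 (-1.02). For Mt1 only wild type stood apart, at 6.51, against 11.07, 11.06 and 11.14 in the double, Hdac2 and Hdac1 knockouts.

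Of the 14338 probe sets with no symbol or several, which the report does not use, 2227 (15.5%) were called in the double knockout against the Hdac2 knockout when all probe sets were fitted, 1252 higher and 975 lower. Their changes ran from -2.72 to 6.06, and 69 were at least 16-fold higher.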

How the results depend on the processing

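Requiring at least a 1.4-fold change left 2576 of the 7155 probe sets called between the double and the Hdac2 knockout, and leaving out 1 array at a time gave 6357 to 6820. The count for the Hdac1 knockout against wild type, 15, became 24 with dim probe sets left out and 30 without Hdac1-knockout replicate 4, with 10 to 30 over all arrays left out in turn. The interaction count of 4939 ran from 4367 to 4871 with 1 array left out. Fitting only the arrays of the groups compared is the same fit as reported for the interaction, so it gives no separate value. Hdac2 passed the threshold at -0.18 with median centring (limma adjusted p = 0.0139), -0.16 with quantile normalization (0.0146) and -0.12 with dim probe sets left out (0.0432). The other 2 Hspb1 probe sets reversed its direction, at 2.11 and 2.14. Of 173 named genes tested under the alternatives 10 lost their call in at least 1, and none turned direction on its own probe set. The cause was not tested in any of these cases.

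The replicate number as a block gave 6893, 12 and 4667 calls for the 3 counts, against 7155, 15 and 4939 as reported. Hdac1 and Hdac2 differed by -1.99 and -0.12 with the block, and whether each was called did not change. Same-numbered arrays correlated best with each other in 1 of 4 cases, so the numbers give no pairing. Signals near the array floor limit how far a dim gene can be seen to fall.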
